A study of Mus musculus with 2 samples.

Results

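Semaphorins, plexins, ephrins and Eph receptors, the large ligand and receptor families of contact and guidance signalling, were followed in platelets of Smad4 −/− and Smad4 f/f mice. The genes were taken by symbol, as every probe set whose single gene symbol in the array annotation names a semaphorin of classes 3 to 7, a plexin, an ephrin or an Eph receptor. This gave 50 genes with 115 probe sets, of 18193 genes with 34945 such probe sets on the array. They are 20 semaphorins, 9 plexins, 8 ephrins and 13 Eph receptors.

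Semaphorins are secreted or membrane-bound ligands. They signal through plexins, whose intracellular part acts as a GTPase-activating protein on small GTPases of the Ras and Rap families. Most of the secreted class 3 semaphorins also need neuropilin coreceptors. Ephrins are ligands fixed to the cell surface, the A class by a lipid anchor and the B class by a transmembrane segment, and Eph receptors are the tyrosine kinases that bind them on the neighbouring cell. In platelets these families are known for signalling at contacts between platelets after aggregation has begun, with Sema4D shed from the surface of activated platelets, and Rap1 is the GTPase that turns on platelet integrins.

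The arrays compared washed platelets of Smad4 −/− mice with those of Smad4 f/f mice, all of strain C57BL/6. In Smad4 −/− mice, loxP-flanked Smad4, which encodes the common partner of SMAD transcription factors, is removed in megakaryocytes and platelets by Cre under the PF4 promoter, and Smad4 f/f mice, which the labels call the wildtype control, carry the same loxP-flanked gene. Age and sex are not given, and each genotype has 6 mice and 1 array. With 1 array per genotype there are no replicates, so every difference below is one between 2 arrays and carries no test. Precision is limited by that number of arrays.

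Signals are MAS5 signals on the linear scale, and log2 ratios set Smad4 −/− over Smad4 f/f. Signals were raised to a floor of 145, set at the 60th percentile of the array where that percentile was higher, and a probe set below it on both arrays was taken as not measured. Where 1 of the signals fell below this floor the fold can only be bounded, and "at least" marks it; 2-fold is a rule of size only. The 3 Smad4 probe sets read 894, 548 and 288 in Smad4 −/− against 949, 600.1 and 313 in Smad4 f/f. They check the deletion only if they lie within the deleted part, which was not analysed here. All 10 platelet markers on the array were measured, with summed signals of 1063228 in Smad4 −/− and 999985 in Smad4 f/f. As a measure of RNA quality, Gapdh control probe sets gave a 3′ to 5′ ratio of 2.61 in Smad4 −/− and 1.86 in Smad4 f/f, and beta-actin gave 1.27 in Smad4 −/− and 1.16 in Smad4 f/f.

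Most of these genes gave little signal in platelets, and no gene with a ratio reached a 2-fold difference between the genotypes above the signal floor. At least 1 probe set was measured for 28 of the 50 genes (56.0%), against 11380 of 18193 genes on the whole array (62.6%). The share was 7 of 9 for plexins, 5 of 8 for ephrins and 12 of 20 for semaphorins, but 4 of 13 for Eph receptors. Of the 28, 26 had a ratio, since the strongest probe set, which stands for the gene (names ending in _x_at come last), was itself measured. Of these 26, 0 were at least 2-fold higher and 0 at least 2-fold lower in Smad4 −/−, where of all 11089 genes with a ratio 3.42% were that much higher and 3.58% lower, or 7.00% in either direction. A difference of 2-fold was out of reach for many of them. Only 8 of the 26 had a signal of 290 or more on either array, from which a difference of 2-fold down to the floor can be seen, against 6527 of the 11089 genes. Among genes that could pass, 5.81% were higher and 6.08% lower, 11.9% in all, and 0 of the 8 guidance genes did so; this second count was added after the values were seen. The floored ratios ran from −0.98 for Plxna1 to 0.89 for Sema3d, with a median of −0.29, beside a median of −0.02 over all genes. Of the 26, 17 were below 0 (65.4%) and 9 above 0, where 51.7% of all genes with a ratio were below 0. In 10 of the 26, 1 of the signals lay below the floor, and those ratios enter the median as bounds. Over all probe sets that are not controls, the median log2 signal was 6.61 in Smad4 −/− and 6.70 in Smad4 f/f. With the arrays centred on their medians, the median log2 ratio was −0.21 for the 26 genes and 0.06 over all genes. With the mean of each gene's measured probe sets it was −0.13 for the 26 genes and −0.02 over all genes.

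**Figure D1:**
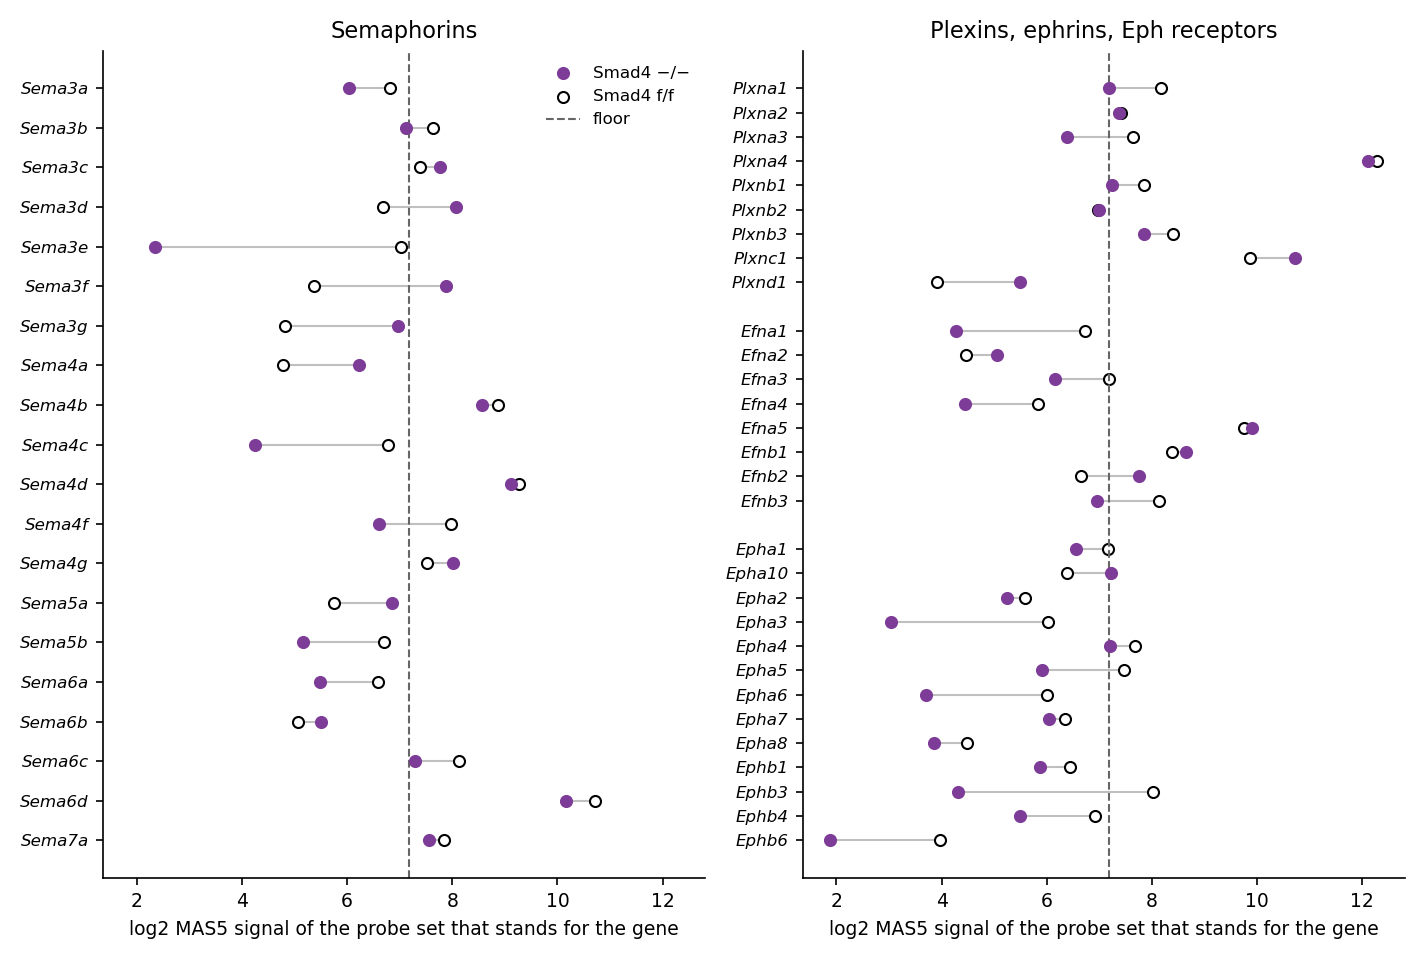
Log2 MAS5 signal in Smad4 −/− (filled) and Smad4 f/f (open) of the probe set that stands for each of the 50 genes, with the floor at log2 7.18 as a dashed line. Plxna4, Plxnc1, Sema6d, Efna5 and Sema4d lie well to the right of the floor on both arrays, and 24 of the 50 genes lie to its left on both.

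Among the ligands, the class 4 semaphorins Sema4d and Sema4b had clear signals on both arrays. Sema4d, the semaphorin best known on platelets, read 555 in Smad4 −/− and 615 in Smad4 f/f, a log2 ratio of −0.15. Its other measured probe set went the opposite way, 597 in Smad4 −/− and 497 in Smad4 f/f, a log2 ratio of 0.26, and the third was below the floor on both arrays. The mean log2 ratio of its measured probe sets was 0.06, so Sema4d had no agreed direction. Sema4b, a transmembrane semaphorin of the same class, read 379 in Smad4 −/− against 468 in Smad4 f/f, a log2 ratio of −0.31 from 1 measured probe set. Sema4g read 258 in Smad4 −/− and 184 in Smad4 f/f, a log2 ratio of 0.49. Sema4f read 97.95 in Smad4 −/−, below the floor, and 252 in Smad4 f/f, at least 1.74-fold lower in Smad4 −/−. The measured class 4 genes thus went both ways, none by 2-fold, while Sema4a and Sema4c were not measured.

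Sema6d, a transmembrane ligand of plexin A1, was the member of class 6 with the clearest signal. It read 1151 in Smad4 −/− and 1673 in Smad4 f/f, a log2 ratio of −0.54 or 1.45-fold lower. Of its other measured probe sets, 1 was lower in Smad4 −/− (185 against 227 in Smad4 f/f) and 1 higher (286 against 207 in Smad4 f/f), which brings the mean log2 ratio of the gene to −0.12. Sema6c read 157 in Smad4 −/− and 280.3 in Smad4 f/f, 1.78-fold lower, but its second measured probe set read 285 in Smad4 −/− and 83.8 in Smad4 f/f, at least 1.97-fold higher. Those probe sets contradict each other by almost the whole 2-fold range on either side, so Sema6c has no direction here. Sema7a, a lipid-anchored semaphorin that binds plexin C1 and beta1 integrins, read 188 in Smad4 −/− and 231 in Smad4 f/f, a log2 ratio of −0.30. Sema6a, Sema6b and Sema5a were not measured. Sema5b was measured by its weaker probe set only (18.1 in Smad4 −/−, 156 in Smad4 f/f) and has no ratio.

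The secreted class 3 semaphorins lay close to the floor, and 3 of the 4 with a ratio were higher in Smad4 −/−. Over all genes, 5356 of the 11089 with a ratio were above 0. Sema3d read 269 in Smad4 −/− against 102 in Smad4 f/f, at least 1.85-fold higher, from 1 measured probe set. Sema3f read 235 in Smad4 −/− against 41.4 in Smad4 f/f, at least 1.62-fold higher, and a stronger probe set of a shared-sequence type (its name ends in _x_at) was also higher, 267 in Smad4 −/− against 189 in Smad4 f/f. For Sema3c both measured probe sets were higher, at 219 and 243 in Smad4 −/− against 168 and 99.2 in Smad4 f/f. Sema3b differed in direction from these, with 140 in Smad4 −/− (below the floor) against 198 in Smad4 f/f, at least 1.36-fold lower, and its second measured probe set went the same way. Sema3a, the class 3 member shown to act on platelets from outside, was not measured, nor were Sema3e and Sema3g. The neuropilin genes were also near the floor: Nrp1 read 176 in Smad4 −/− and 144 in Smad4 f/f, and Nrp2 175 in Smad4 −/− and 268 in Smad4 f/f. With the mean of each gene's measured probe sets, the median over the 11 semaphorins was 0.06 in place of −0.30. Under the other scalings, floors and choices of probe sets the semaphorin median stayed below 0, between −0.13 and −0.30. The genes under it were not always the same 11. With other floors it was taken over 5 to 20 semaphorins, and without probe sets ending in _s_at, _a_at or _x_at over 9.

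Plexins held the receptors with the clearest signal. Plxnc1, the receptor of Sema7a, was the only one of the 8 genes with a signal of 290 or more whose ratio went past 1.5-fold. It read 1687 in Smad4 −/− against 937 in Smad4 f/f, a log2 ratio of 0.85 or 1.80-fold higher. Its other measured probe sets read 1153, 449 and 191 in Smad4 −/− against 982, 244 and 77.2 in Smad4 f/f, so all 4 were higher in Smad4 −/−, with log2 ratios from 0.23 to 0.88 and a mean of 0.59. The ligand gene Sema7a was not higher, as given above. Over all 11089 genes, 11.8% were at least 1.5-fold higher and 13.3% at least 1.5-fold lower, and 3 and 6 of the 26 guidance genes were.

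Plxna4, a class A plexin known as a receptor of class 3 and class 6 semaphorins, read 4445 in Smad4 −/− and 5001.5 in Smad4 f/f, a log2 ratio of −0.17. Its second probe set gave 2795 in Smad4 −/− and 2440 in Smad4 f/f, a log2 ratio of 0.20, so both probe sets were far above the floor and within 1.15-fold between genotypes. Plxna4os1, an RNA gene annotated within the span of Plxna4, has its own probe set, which read 169 in Smad4 −/− and 62.9 in Smad4 f/f; how far the Plxna4 probes overlap other transcripts there was not analysed.

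The other plexins were near the floor and mostly lower in Smad4 −/−. Plxnb1, the high-affinity receptor of Sema4D, read 151 in Smad4 −/− against 230 in Smad4 f/f, 1.52-fold lower, and its second probe set, 53.5 in Smad4 −/− against 262 in Smad4 f/f, was at least 1.80-fold lower. Plxnb3, the receptor of Sema5A, read 230 in Smad4 −/− against 340 in Smad4 f/f, 1.48-fold lower, from 1 measured probe set whose name ends in _s_at, a type that can match several transcripts. Plxna3 read 83.9 in Smad4 −/− and 199 in Smad4 f/f, at least 1.37-fold lower. For Plxna1, a receptor of Sema6D and of class 3 semaphorins, the stronger probe set read 145.5 in Smad4 −/− and 288 in Smad4 f/f, 1.98-fold lower, and the weaker one 265 in Smad4 −/− and 64.7 in Smad4 f/f, at least 1.82-fold higher. Plxna1 therefore had no agreed direction, with a mean log2 ratio of −0.06. Plxna2 read 166 in Smad4 −/− and 171 in Smad4 f/f, and Plxnb2 and Plxnd1 were not measured. In all, 6 of the 7 plexins with a ratio were below 0, where 51.7% of all genes with a ratio were. With the arrays centred on their medians or quantile normalised Plxna2 turned positive and 5 were below 0. With the mean of each gene's measured probe sets Plxna4 turned positive, 5 were below 0 and the plexin median was −0.15 in place of −0.46. With the floor at the 50th percentile the plexin median was −0.37 over 8 genes, and at the 75th −0.16 over 4. With no floor it was −0.17 over 9 genes, 3 of them above 0. Without probe sets ending in _s_at, _a_at or _x_at it was −0.31 over 6 genes.

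**Figure D2:**
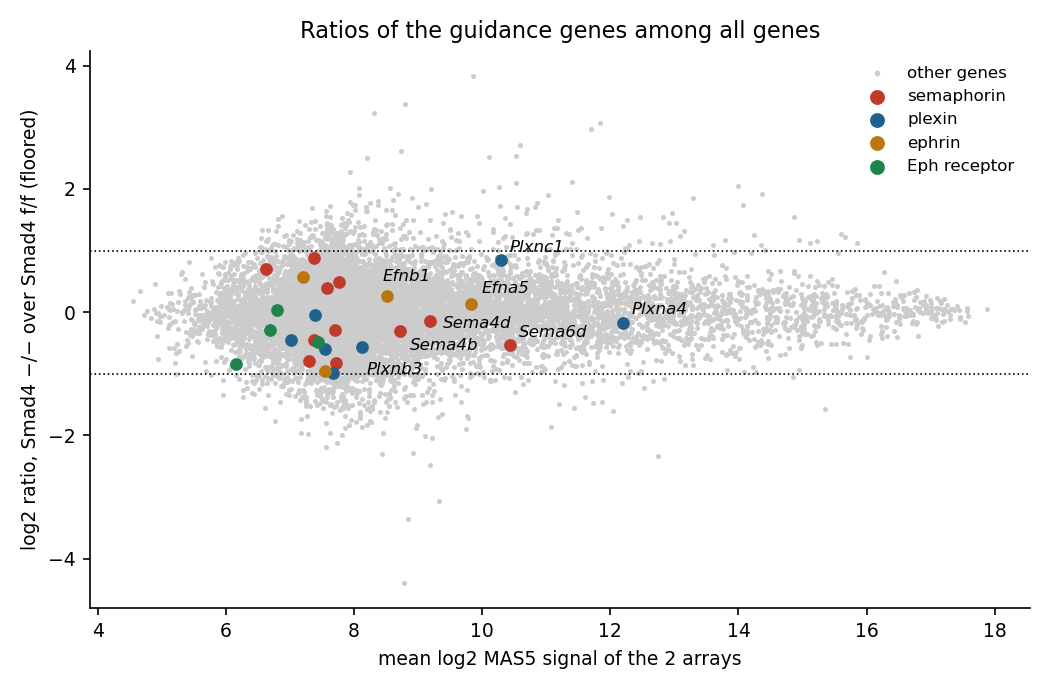
Log2 ratio of floored signals, Smad4 −/− over Smad4 f/f, on the mean log2 signal of the 2 arrays, for the 26 guidance genes with a ratio (coloured by family) and all other genes (grey), with 2-fold as dotted lines. The 8 named genes had a signal of 290 or more on at least 1 array, and all coloured points lie between the dotted lines.

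Ephrins gave a mixed picture. Efna5, a lipid-anchored ephrin, read 952 in Smad4 −/− and 863 in Smad4 f/f, a log2 ratio of 0.14, while its other probe set was below the floor on both arrays. Efnb1, a transmembrane ephrin that platelets are known to carry, read 403 in Smad4 −/− and 334 in Smad4 f/f, a log2 ratio of 0.27. The second measured probe set of Efnb1 pointed the other way, 158 in Smad4 −/− against 230 in Smad4 f/f, and so did that of Efnb2. Efnb2, the ligand of EphB4 in vessels, read 216 in Smad4 −/− against 101 in Smad4 f/f by 1 probe set, at least 1.48-fold higher, and 8.12 in Smad4 −/− against 223 in Smad4 f/f by the other, at least 1.54-fold lower. Efnb3 has a single probe set, which read 124 in Smad4 −/− against 281 in Smad4 f/f, at least 1.94-fold lower. Efna1, Efna3 and Efna4 follow one another among the protein-coding genes of the mouse reference. Of these neighbours only Efna3 was measured, by its weaker probe set (17.8 in Smad4 −/−, 159 in Smad4 f/f), and Efna1, Efna4 and also Efna2 were not.

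Eph receptors were the family with the least signal. Ephb3 read 19.8 in Smad4 −/− and 259 in Smad4 f/f, at least 1.79-fold lower, and Epha4 read 148 in Smad4 −/− and 206 in Smad4 f/f, 1.40-fold lower. Epha5 read 59.8 in Smad4 −/− and 177 in Smad4 f/f, at least 1.22-fold lower. Epha10 read 149.6 in Smad4 −/− and 83.8 in Smad4 f/f, just over the floor on 1 array. All 4 rest on 1 measured probe set, and none reached the signal from which a 2-fold difference could be seen. Epha4 and Ephb1 are the Eph kinases known from human platelets; 4 of the 5 Epha4 probe sets and the 1 of Ephb1 were below the floor on both arrays. Epha1, Epha2, Epha3, Epha6, Epha7, Epha8, Ephb4 and Ephb6 were not measured either.

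SMAD proteins bind short DNA elements with the core CAGAC, and the sequence upstream of the clearest members is shown so that this core can be seen or missed in it. Each window holds the 250 bases before a RefSeq transcript start, 5′ to 3′ on the strand of the gene in GRCm38.p6, with CAGAC or its reverse complement GTCTG in capitals. Of the genes with a signal above the 75th percentile (260.1) on both arrays, the 3 with a single window are shown, and of the 3 windows of Sema4d the 2 that hold the core, chosen for that.
Plxnc1, chr10:94944846-94945095, minus strand: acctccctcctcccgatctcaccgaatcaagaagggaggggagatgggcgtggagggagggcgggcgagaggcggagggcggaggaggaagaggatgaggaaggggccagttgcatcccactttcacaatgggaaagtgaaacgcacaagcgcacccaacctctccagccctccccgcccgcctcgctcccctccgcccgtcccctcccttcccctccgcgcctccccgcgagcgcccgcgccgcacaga
Efna5, chr17:62881318-62881567, minus strand: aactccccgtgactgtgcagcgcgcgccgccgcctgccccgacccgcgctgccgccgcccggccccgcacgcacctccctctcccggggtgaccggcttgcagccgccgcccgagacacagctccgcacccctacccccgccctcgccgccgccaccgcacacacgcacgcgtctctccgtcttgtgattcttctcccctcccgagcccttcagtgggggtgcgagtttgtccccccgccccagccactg
Efnb1, chrX:99135811-99136060, plus strand: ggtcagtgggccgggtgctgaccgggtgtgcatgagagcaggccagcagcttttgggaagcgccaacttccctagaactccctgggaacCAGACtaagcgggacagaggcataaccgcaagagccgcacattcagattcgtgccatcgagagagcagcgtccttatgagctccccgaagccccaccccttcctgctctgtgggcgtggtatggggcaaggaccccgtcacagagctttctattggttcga
Sema4d, chr13:51748811-51749060, minus strand: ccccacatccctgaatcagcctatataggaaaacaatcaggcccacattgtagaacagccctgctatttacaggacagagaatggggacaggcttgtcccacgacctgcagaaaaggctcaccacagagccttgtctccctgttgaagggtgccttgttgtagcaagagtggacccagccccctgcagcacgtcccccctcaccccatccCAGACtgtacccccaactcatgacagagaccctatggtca
Sema4d, chr13:51756684-51756933, minus strand: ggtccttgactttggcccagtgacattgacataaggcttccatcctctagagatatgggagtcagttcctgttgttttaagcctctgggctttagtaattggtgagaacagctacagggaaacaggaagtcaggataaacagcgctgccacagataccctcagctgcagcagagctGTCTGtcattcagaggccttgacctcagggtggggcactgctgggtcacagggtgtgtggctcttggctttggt

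Plxnc1, the one with the highest ratio of these genes, and Efna5 hold no such core in the window. Efnb1 holds 1 and the Sema4d windows shown hold 1 each, while the third Sema4d window, not shown, holds 0. Of the other genes above that percentile, Sema6d has the core in 1 of 2 windows and Sema4b in 0 of 2, neither shown. Plxna4, also above it, had no window. Thus 4 of the 10 windows hold the core, and these windows cover 6 of the 7 genes above that percentile. Of the 50 genes, 44 had an entry, with 58 windows, of which 30 (51.7%) held the core on either strand, against 13861 of 32851 windows (42.2%) over all genes. These are matches of letters and do not show binding.

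Where a gene had several measured probe sets they disagreed about as often as they agreed, here as elsewhere on the arrays. Of the 13 guidance genes with a ratio and 2 or more measured probe sets, 6 had all of them on the same side of 0 (46.2%), against 47.7% of 4219 such genes overall. The 6 were Sema3b, Sema3c, Sema3f, Plxna2, Plxnb1 and Plxnc1. The pooled SD of the log2 ratio between probe sets of a gene was 0.59 over these 13 genes and 0.48 over 4252 genes on the array. This SD was taken on floored ratios, so probe sets with a signal below the floor enter as bounds and their disagreement may be understated. It reflects probes only and holds no spread between animals. The ratios of 0.85 for Plxnc1 and −0.60 for Plxnb1, both with all measured probe sets agreeing, are to be read against it.

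**Figure D3:**
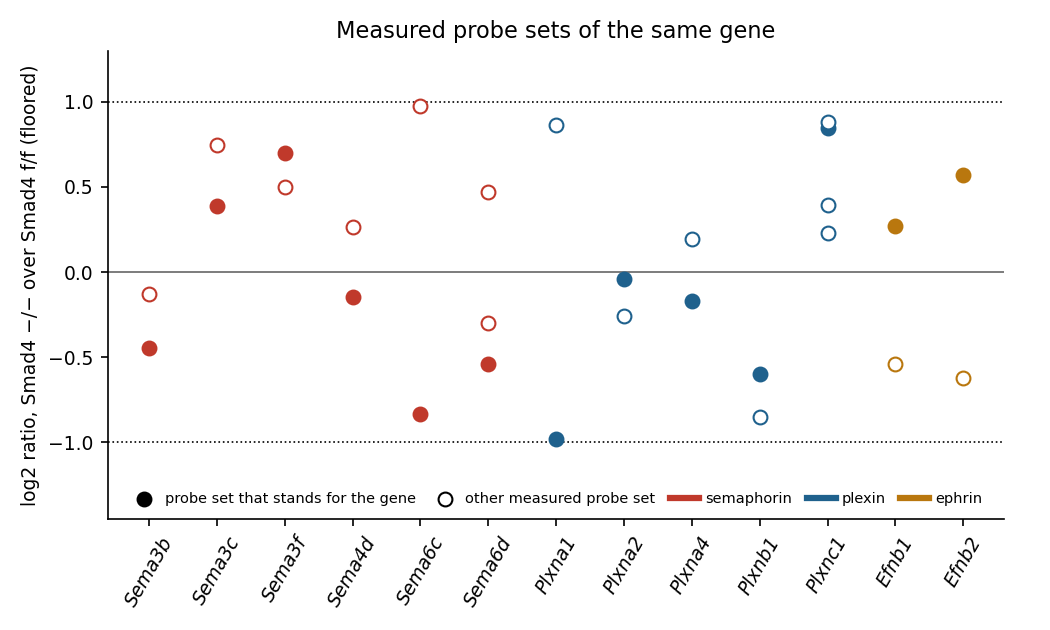
Log2 ratio of floored signals, Smad4 −/− over Smad4 f/f, of every measured probe set of the 13 guidance genes with 2 or more, with the probe set that stands for the gene filled and 2-fold as dotted lines. The 4 points of Plxnc1 lie above 0 and the 2 of Plxnb1 below it, while those of Plxna1 and Sema6c lie near 2-fold on opposite sides.

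Coreceptors and intracellular partners of these receptors were read from a list of 76 genes, of which 74 are on the array and 52 had a ratio. At least 2-fold higher in Smad4 −/− were 4 of the 52, and at least 2-fold lower were 3, beside the 3.42% and 3.58% over all genes given above. Of the 52, 34 could reach 2-fold, and the 7 are among them by definition. Over all genes on the array that could reach 2-fold, 11.9% passed in either direction. The median log2 ratio of the 52 was −0.11. Mras, a Ras-family GTPase of the kind that plexins inactivate, was the highest. It read 2695 in Smad4 −/− and 821 in Smad4 f/f, 3.28-fold higher, and its other probe set had a log2 ratio of 0.65. Rras2, a relative of the plexin substrate R-Ras, read 674 in Smad4 −/− and 330 in Smad4 f/f, 2.04-fold higher, with −0.12 by its second probe set. R-Ras itself (Rras) was not higher, at 513 in Smad4 −/− against 718 in Smad4 f/f. Grb10, an adaptor that binds EphB1, read 594 in Smad4 −/− and 222 in Smad4 f/f, 2.68-fold higher, but its lowest probe set had a log2 ratio of −0.83. Sipa1l1, a Rap GTPase-activating protein that binds EphA4, read 411 in Smad4 −/− and 140 in Smad4 f/f, at least 2.83-fold higher, with another probe set at −0.45.

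On the lower side, Chn2, which encodes beta2-chimaerin, a Rac GTPase-activating protein, read 374 in Smad4 −/− and 1173 in Smad4 f/f, 3.13-fold lower, and its second probe set had a log2 ratio of −0.91. Limk1, the kinase that phosphorylates cofilin downstream of plexins, read 488 in Smad4 −/− and 1348 in Smad4 f/f, 2.76-fold lower, with 0.48 by its second measured probe set. Grip2, a PDZ protein that binds ephrin-B, read 27.6 in Smad4 −/− and 327 in Smad4 f/f, at least 2.25-fold lower. Of these 7 genes, Mras and Chn2 had 2 measured probe sets on the same side, Grip2 had 1, and the others disagreed. Rgs3, which binds the tail of B-class ephrins, had 3 measured probe sets, all lower in Smad4 −/−, and read 364 against 662 in Smad4 f/f. Rap1b read 155499 in Smad4 −/− and 168206 in Smad4 f/f, with log2 ratios from −0.26 to −0.11 over 3 probe sets. Rac1 read 77989 in Smad4 −/− and 83316 in Smad4 f/f, with another probe set at −0.67. Adam10, a protease that cuts ephrins from the surface, read 41305 in Smad4 −/− and 34479 in Smad4 f/f, with another probe set at −0.53. Itgb1, the beta1 integrin that Sema7A binds, read 16027 in Smad4 −/− and 23731 in Smad4 f/f, 1.48-fold lower, and its probe sets ran from −0.57 to 0.81. The Sema4D receptor gene Cd72 read 389 in Smad4 −/− and 321 in Smad4 f/f.

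**Figure D4:**
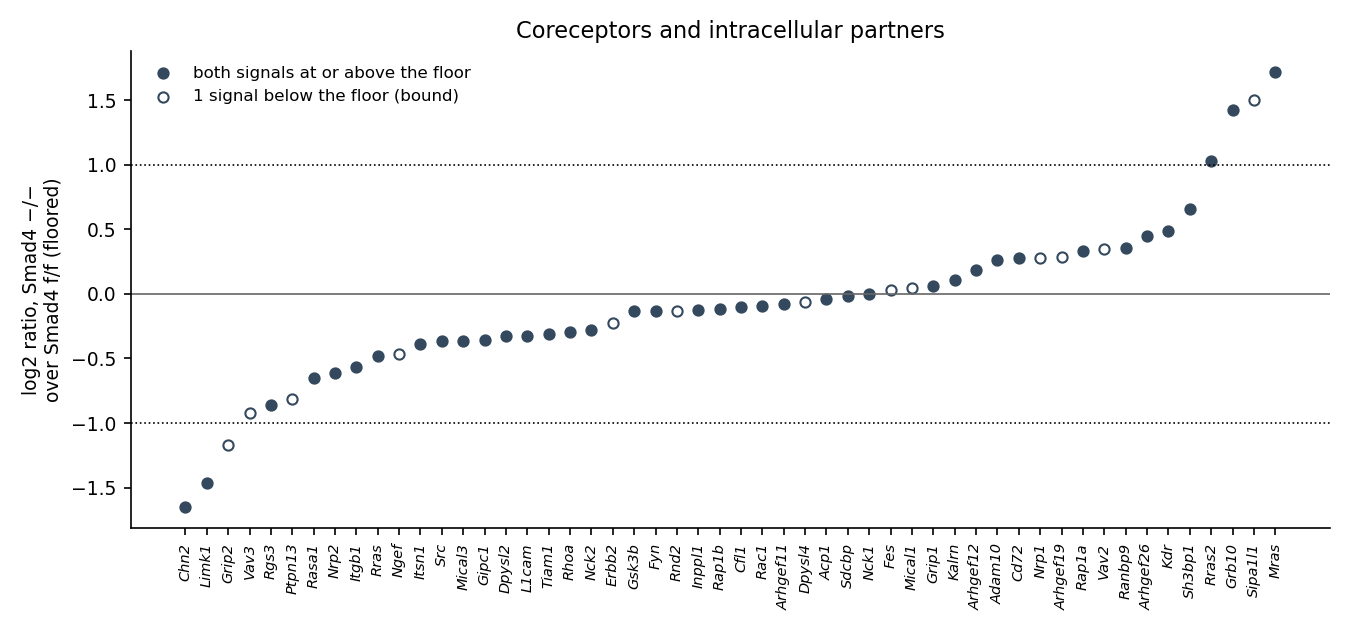
Log2 ratio of floored signals, Smad4 −/− over Smad4 f/f, of the 52 coreceptor and partner genes with a ratio, in order of the ratio, with bounds as open points and 2-fold as dotted lines. Mras, Sipa1l1, Grb10 and Rras2 lie above the upper line, and Chn2, Limk1 and Grip2 below the lower one.

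Several of these genes are also made by other blood cells or by endothelial cells, so markers of such cells were read beside them. In bulk RNA, fewer cells of a type and less RNA per cell cannot be told apart. Of the 4 erythroid markers with a ratio, Alas2, Slc4a1 and Fech passed 2-fold, with more signal in Smad4 −/−, and the other was not above 0. Hba-a1 and Rhag lay below the floor on both arrays. The erythroid list summed to 18586 in Smad4 −/− and 6898 in Smad4 f/f over 7 genes. T cell markers summed to 13929 in Smad4 −/− and 5671 in Smad4 f/f over 9 genes. Cd28 passed 2-fold, higher in Smad4 −/−, and Cd3e, Cd3g, Cd247, Cd4 and Cd5 were below the floor on both arrays. B cell markers summed to 5323 in Smad4 −/− and 4386 in Smad4 f/f over 8 genes. Of the 7 with a ratio 2 passed 2-fold, Cr2 and Jchain, both higher in Smad4 −/−. Neutrophil markers summed to 7911 in Smad4 −/− and 6146 in Smad4 f/f over 9 genes, with 0 of 6 past 2-fold. Monocyte and macrophage markers summed to 132593 in Smad4 −/− and 140695 in Smad4 f/f over 8 genes, and endothelial markers to 139256 in Smad4 −/− and 113516 in Smad4 f/f over 10 genes, each with 1 gene past 2-fold (Csf1r and Flt1, both higher in Smad4 −/−). No marker was listed at 0. The endothelial list includes Vwf and Esam, which platelets also carry, so its sum cannot be read as endothelial RNA alone. The part of these cells and of RNA quality in the values of Plxnc1 and the other guidance genes was not tested.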

How the data were processed

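Platelet RNA of 2 genotypes was measured on 1 Affymetrix whole-genome mouse array each. The values, as deposited, are on a log2 scale with 1 for every probe set; MAS5 is named per the submitters' processing notes, without version or settings, and the scaling, a trimmed mean of 500.01 on both arrays, was read from the values. No source used here says whether the RNA of mice was pooled. Of 45101 probe sets, 64 controls were left out, as were those with several gene symbols or none. All 50 genes matched the GRCm38.p6 RefSeq table by Entrez ID.

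A gene counted as measured if any probe set reached the floor on an array. The probe set with the highest mean over the arrays stood for it (_x_at last), with a ratio if that one was measured. Every measured gene of the families was named, and partner genes past 2-fold; Rras, Rgs3, Rap1b, Rac1, Adam10, Itgb1, Cd72 and the neuropilins were named after their values were seen. No test was run. Members and lists were chosen with earlier results of these data known. Alternatives were median centring, quantile normalisation, a loess correction, other floors, the mean of a gene's probe sets, leaving out _s_at, _a_at and _x_at sets, and 1.5-fold and 3-fold rules. Steps were tested on simulated data without noise, which checks the calculation and not the spread of real arrays. Python 3.11.15, pandas 2.3.3, statsmodels 0.14.6 and matplotlib 3.10.9 were used.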

Additional observations from a re-analysis of the deposited data

How the results depend on the processing

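No paired analysis was possible because each genotype has 1 array. Counts of 0 guidance genes at least 2-fold higher and 0 lower were also found under median centring, quantile normalisation and the loess correction. The mean of probe sets, leaving out shared-sequence sets, the 3-fold rule and the 75th percentile floor gave 0 too, but could give nothing else, since every measured probe set lay within 2-fold. They became 3 higher and 3 lower with the floor at the 50th percentile (Efnb2, Sema3d and Sema3f; Efnb3, Ephb3 and Sema4f) of 36, where 671 and 762 of 13146 genes passed, 7 and 16 with no floor, where 2727 and 3079 of 18193 genes passed, and 3 and 6 at 1.5-fold. Genes measured numbered 14 at the 75th percentile floor and 50 without a floor. Over guidance genes with a ratio, the median log2 ratio was −0.19 for 36 genes with the floor at the 50th percentile. It was −0.13 for 12 genes at the 75th percentile, −0.52 for 50 with none and −0.13 for 26 with the mean of probe sets. Over the 8 genes that could reach 2-fold, an alternative chosen after seeing the data, it was −0.16. Partner genes at least 2-fold higher were 13 with no floor, 1 with the mean of probe sets, 2 without shared-sequence sets and 1 at 3-fold, and those lower were 5 with the floor at the 50th percentile, 11 with none, 8 at 1.5-fold and 1 at 3-fold. All genes passing were 286 higher and 287 lower with the mean of probe sets, 315 and 332 of 9538 without shared-sequence sets, 57 and 46 at 3-fold and 1308 and 1480 at 1.5-fold. Over all genes at 2-fold, 379 were higher and 397 lower, against 479 and 315 with median centring. Signals near the floor limit most of these genes, and causes were not tested.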
